A study of Mus musculus with 703 samples.

Results

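The expression of 10 endothelial and angiogenic genes, out of the 19088 genes in the deposited table, was followed as a readout of the capillary bed of muscle across strain, diet, sex and treatment. They were the genes whose gene symbol was Pecam1, Cdh5, Kdr, Flt1, Tek, Emcn, Esam, Vegfa, Vegfb or Angpt1, and all 10 were found once and passed the filter on low counts in every comparison. The first 7 are genes of endothelial cells and the last 3 encode ligands that act on them. The tissue was gastrocnemius muscle of 703 mice from 20 CC-RIX strains, each an F1 cross between inbred lines of the Collaborative Cross, which descend from the same set of founder strains. Both sexes were fed a diet with 10% fat or a high-fat high-sugar diet with 44% fat, each with fiber, from 6 weeks of age. The 469 untreated libraries came from 236 females and 233 males, of which 234 were fed 10% fat and 235 were fed 44% fat, about evenly over the 4 groups. Metformin, a glucose-lowering drug, was given in the drinking water at 5 mg/mL to 57 females on 10% fat, 59 females on 44% fat, 59 males on 10% fat and 59 males on 44% fat.

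Metformin began at 7 months of age in the cohort that was taken at 12 months, while untreated mice came from a 6-month or a 12-month cohort. The labels used here give no age for single mice, so metformin and age cannot be told apart below. Age was thus a term in no fit, and the untreated cohorts were not separated. Every mouse was labelled as one replicate of its own cross, sex, diet and treatment, so a library stood for a mouse.

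Capillaries are tubes of endothelial cells held together by junction proteins, and in skeletal muscle they run along the fibres to bring oxygen, glucose and fatty acids. Muscle fibres secrete VEGF-A, which binds receptors on endothelial cells and drives capillary growth, while VEGF-B binds the receptor encoded by Flt1 and is made mainly by oxidative tissues. Angiopoietin-1, the product of Angpt1, activates the receptor encoded by Tek and keeps vessels quiescent and tight.

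Library totals ran from 27368536 to 96100529 counts with a median of 47876086, and each count was an estimate over alignments to the founder genomes rather than an observed read. Sequencing identifiers fell in a lower range of 544 libraries and an upper range of 159, and the range was a term in each fit. Among all libraries 15 went against their sex label and 4 against their strain label, and 163 held liver transcripts above 10 CPM (counts scaled to a common library total) in sum. In bulk tissue, fewer endothelial cells and less RNA per endothelial cell cannot be told apart.

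The endothelial genes were present in each of the 703 libraries, as were 28 of 28 further endothelial markers. Pecam1 (ENSMUSG00000020717, chr11:106654217-106750628 in GRCm38), an adhesion molecule of endothelial junctions, had a mean of 39.8 ± 5.77 CPM (SD, n = 469 untreated libraries). Cdh5 (ENSMUSG00000031871, chr8:104101625-104144502), which encodes VE-cadherin of the adherens junction, had a mean of 46.9 ± 6.55 CPM. Esam (ENSMUSG00000001946, chr9:37528078-37538319), a tight-junction adhesion molecule, stood at 12.2 ± 1.83 CPM, and Emcn (ENSMUSG00000054690, chr3:137341067-137432185), the sialomucin endomucin of capillaries and veins, had 6.40 ± 1.29 CPM. Among the receptors, Kdr (ENSMUSG00000062960, chr5:75932827-75978458), the main signalling receptor of VEGF-A, had 35.6 ± 7.79 CPM. Flt1 (ENSMUSG00000029648, chr5:147561604-147726011), the receptor that binds both VEGF-A and VEGF-B, had 45.8 ± 8.25 CPM, and Tek (ENSMUSG00000006386, chr4:94739289-94874976), the angiopoietin receptor, had 18.1 ± 2.61 CPM. Of the ligands, Vegfa (ENSMUSG00000023951, chr17:46016993-46032377) had 115.98 ± 23.9 CPM, Vegfb (ENSMUSG00000024962, chr19:6982473-6987651) 42.98 ± 6.81 CPM and Angpt1 (ENSMUSG00000022309, chr15:42424727-42676977) 21.98 ± 7.02 CPM.

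Levels of different genes were compared only per length, as CPM divided by the kilobases covered by the exons of all annotated transcripts. That length, and so the order below, depends on which transcripts are annotated. On that scale both VEGF ligands stood highest among the 10, with 27.1 CPM per kb for Vegfa and 26.8 for Vegfb. Cdh5 followed at 11.2 CPM per kb and Pecam1 at 6.39, while Esam (4.27), Angpt1 (4.22), Kdr (3.94), Tek (3.83) and Flt1 (3.39) lay close together and Emcn (1.18) was lowest.

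For the VEGF ligands and the receptors they bind, the start regions are shown because those genes are read side by side in every comparison below. They are the 250 bases before the annotated start in RefSeq on the GRCm38.p6 reference, printed 5′ to 3′ on the gene's strand. The strains studied carry founder alleles that can differ from that reference. Such a region was found for 6 of the 10 genes, and for Vegfa the outermost of its starts was taken. Capitals mark AGGAAG, a core bound by ETS factors, GGGCGG, the GC box, and ACGTG, the core of a hypoxia response element, on either strand.
Kdr (chr5:75978456-75978705, minus strand): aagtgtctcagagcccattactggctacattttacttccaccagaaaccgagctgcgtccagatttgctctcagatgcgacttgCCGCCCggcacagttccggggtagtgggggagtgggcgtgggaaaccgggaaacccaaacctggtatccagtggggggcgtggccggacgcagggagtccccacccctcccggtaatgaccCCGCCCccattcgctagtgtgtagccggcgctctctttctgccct
Flt1 (chr5:147726012-147726261, minus strand): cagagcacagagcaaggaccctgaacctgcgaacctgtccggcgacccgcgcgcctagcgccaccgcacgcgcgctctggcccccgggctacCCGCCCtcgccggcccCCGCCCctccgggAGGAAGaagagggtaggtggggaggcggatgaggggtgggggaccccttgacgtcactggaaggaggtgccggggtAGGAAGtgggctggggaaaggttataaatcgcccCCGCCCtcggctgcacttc
Vegfa (chr17:46032378-46032627, minus strand): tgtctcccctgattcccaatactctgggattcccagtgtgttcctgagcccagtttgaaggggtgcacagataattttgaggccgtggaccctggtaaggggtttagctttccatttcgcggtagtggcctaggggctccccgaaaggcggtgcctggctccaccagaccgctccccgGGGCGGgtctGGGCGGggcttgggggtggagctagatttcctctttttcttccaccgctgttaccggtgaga
Vegfb (chr19:6987652-6987901, minus strand): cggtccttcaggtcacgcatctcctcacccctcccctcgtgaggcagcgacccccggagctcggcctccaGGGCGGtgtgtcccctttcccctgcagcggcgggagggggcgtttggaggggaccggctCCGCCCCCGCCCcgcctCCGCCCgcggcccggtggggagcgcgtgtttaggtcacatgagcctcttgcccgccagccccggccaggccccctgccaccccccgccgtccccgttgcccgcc
The Flt1 window held 2 copies of AGGAAG and 3 of GGGCGG, whereas the Kdr window held 2 copies of GGGCGG and the Vegfa window 2. The Vegfb window held 4 copies of GGGCGG and was the richest of these in G and C, at 76.4% against a median of 52.4% over all such regions. AGGAAG occurred in 29.5% of all 32851 regions of this length, GGGCGG in 32.7% and ACGTG in 16.6%. No ACGTG was found in these 4 windows, which says only that the letters were not in them, and the window before the inner Vegfa start (chr17:46025164-46025413), not shown, held 1.

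Strain was compared first. In the untreated libraries all 10 genes differed among the 20 strains, against 93.2% of all 16384 genes tested (edgeR's quasi-likelihood test with 19 strain terms, Benjamini-Hochberg adjusted p under 0.05 over all genes). The adjusted p ran from 1.8e-84 for Angpt1 to 8.8e-05 for Tek. In the lower range alone all 10 passed against 92% of genes, and in the upper range 8, without Tek and Vegfb, against 51.8%. Strain took 47.2% of the variance of log2 CPM for Angpt1 and 38.4% for Vegfa, while the median over all tested genes was 15.3%. Emcn followed with 25.7%, Pecam1 with 20.9% and Esam with 17.8%. The share was 15.2% for Flt1, 14.7% for Cdh5, 10.5% for Kdr, 9.53% for Vegfb and 6.69% for Tek, at or under that median. In the lower range alone Angpt1 had 36.96% and Vegfa 40.5%, against a median of 15.98% over all tested genes, so the order of Angpt1 and Vegfa turned.

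**Figure D1:**
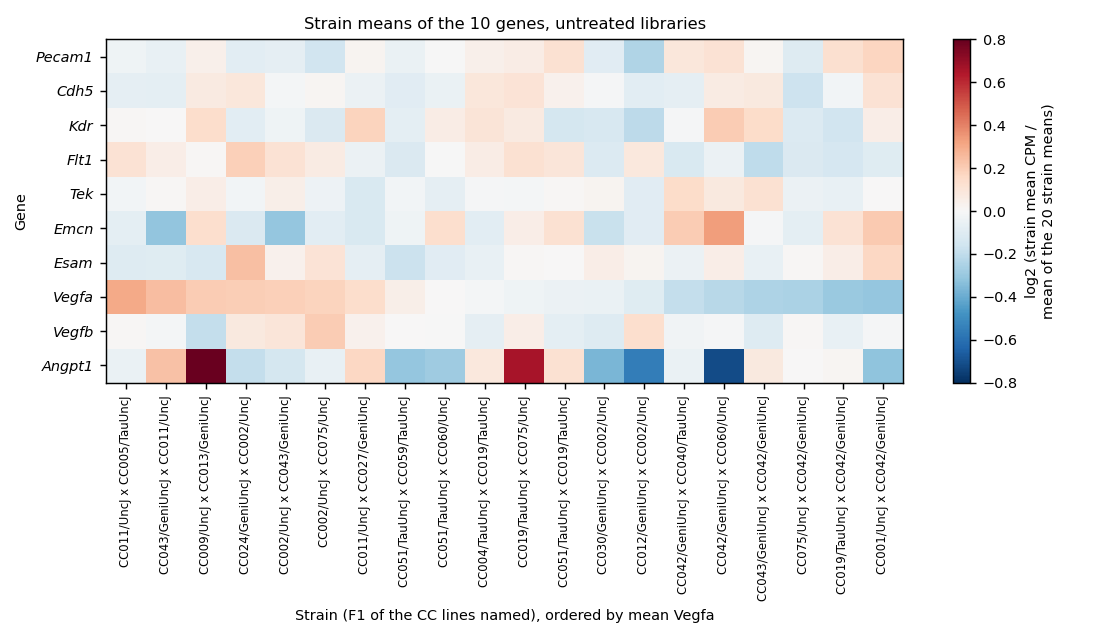
Strain means of the 10 genes in the untreated libraries (rows) over the 20 strains (columns, ordered by mean Vegfa), coloured by log2 of the strain mean over the mean of the 20 strain means. Angpt1 had the strongest colours in both directions, the 6 crosses with CC042/GeniUncJ were the 6 lowest for Vegfa, and the endothelial genes did not share 1 order of strains.

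Vegfa divided the strains by a parental line. The 6 crosses that had CC042/GeniUncJ as a parent had mean Vegfa between 93.9 and 102.1 CPM, and the 14 other strains had means between 108.7 and 143 CPM, so the strain means did not overlap. The lowest was (CC001/UncJ x CC042/GeniUncJ)F1 at 93.9 ± 19.2 CPM (SD, n = 24) and the highest (CC011/UncJ x CC005/TauUncJ)F1 at 143 ± 25.6 CPM (n = 26), 1.53-fold apart. Single libraries of those 2 strains did overlap, from 68.1 to 151.5 CPM in the former and from 106.9 to 204 CPM in the latter. The 3 crosses with CC011/UncJ ranked between 1 and 7, with means from 128 to 143 CPM. In the separate metformin mice the CC042/GeniUncJ crosses had means from 90.9 to 101.5 CPM and ranked between 14 and 20, while the other 14 ran from 99.3 to 137 CPM. This grouping and those by parental line below were made after the values were seen and carry no test. Neighbours in the order of strains lay within 1 SD of each other in 19 of 19 steps, the widest being 8.03 CPM after rank 7.

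Angpt1 had the widest spread between strains of the 10. The cross (CC009/UncJ x CC013/GeniUncJ)F1 stood highest and had a lowest library of 34.2, a median of 38.03 and a highest of 44.7 CPM (n = 10), and lowest in (CC042/GeniUncJ x CC060/UncJ)F1, with 8.54, 13.6 and 21.3 CPM (n = 22). Those libraries did not overlap, and the means of 38.9 ± 4.04 and 13.7 ± 3.33 CPM were 2.84-fold apart. Next to the top was (CC019/TauUncJ x CC075/UncJ)F1 at 35.4 ± 8.50 CPM (n = 24), and after it came the only step in the order, of 9.08 CPM, that was larger than the SD of the strain above it. The other 18 strains fell in small steps from 26.4 to 13.7 CPM. In the metformin mice the top and the bottom were (CC019/TauUncJ x CC075/UncJ)F1 at 41.4 ± 5.76 CPM (n = 12) and (CC042/GeniUncJ x CC060/UncJ)F1 at 15.1 ± 4.25 CPM (n = 11). All 10 untreated mice of (CC009/UncJ x CC013/GeniUncJ)F1 were in the upper identifier range, so its level and that range cannot be told apart over the whole series. Inside the upper range it ranked 2nd, behind (CC019/TauUncJ x CC075/UncJ)F1 at 40.7 ± 7.10 CPM (n = 12), and (CC042/GeniUncJ x CC060/UncJ)F1 had 13.996 ± 4.05 CPM there (n = 10).

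**Figure D2:**
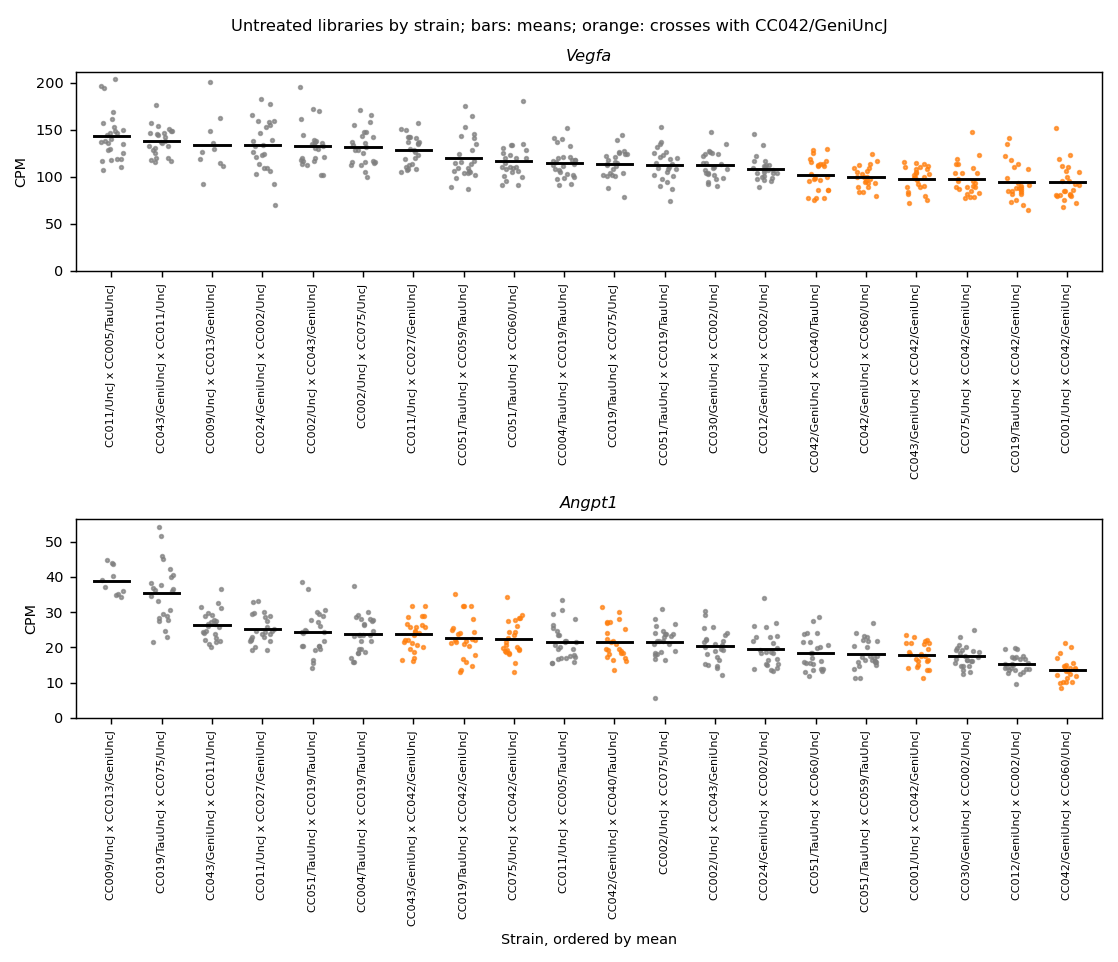
CPM of Vegfa (upper panel) and Angpt1 (lower panel) in every untreated library, by strain in order of the mean. Points are libraries, bars are strain means, and crosses with CC042/GeniUncJ are orange: they take the 6 lowest places for Vegfa and are spread from rank 7 to 20 for Angpt1.

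Most endothelial genes followed other orders of strains than the ligands Vegfa and Angpt1, and Flt1 was closest to Vegfa. Over the strain means of log2 CPM, Pearson's r with Vegfa was 0.70 for Flt1. It ran down to -0.58 for Emcn, with a median of -0.18 over the 7 endothelial genes. With Angpt1 it ran from -0.36 to 0.23. Emcn ranged 1.57-fold, from 8.10 ± 1.58 CPM in (CC042/GeniUncJ x CC060/UncJ)F1 (n = 22) to 5.17 ± 0.829 CPM in (CC043/GeniUncJ x CC011/UncJ)F1 (n = 24), and its 3 highest strains were all crosses with CC042/GeniUncJ. Pecam1 ranged 1.33-fold, from 44.99 ± 5.96 CPM in (CC001/UncJ x CC042/GeniUncJ)F1 to 33.8 ± 4.08 CPM in (CC012/GeniUncJ x CC002/UncJ)F1 (n = 24 each). The 5 crosses with CC002/UncJ had Pecam1 means from 33.8 to 37.995 CPM and ranked between 15 and 20, and in the metformin mice they ranked between 14 and 20. For Flt1 the order along CC042/GeniUncJ ran the other way from Emcn and the same way as Vegfa. The 6 crosses of that line ranked between 13 and 20 for Flt1, with means from 39.8 to 44.4 CPM. The top strain was (CC024/GeniUncJ x CC002/UncJ)F1 at 52.3 ± 9.67 CPM (n = 24). The ratio of the highest to the lowest strain mean was 1.33 for Esam and Kdr, 1.32 for Flt1, 1.31 for Vegfb, and 1.21 for Cdh5 and Tek. In each of these 8 genes all 19 neighbouring pairs lay within 1 SD and the top and bottom strains overlapped.

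The 3 listed vessel genes with the lowest p for strain were named by that rule, so their spread describes no other gene. Ly6c1, a surface protein of capillary endothelium, ran from 28.9 CPM in (CC002/UncJ x CC043/GeniUncJ)F1 to 10.2 CPM in (CC019/TauUncJ x CC075/UncJ)F1 (adjusted p = 6.6e-129 by edgeR). Egln3, a prolyl hydroxylase induced by low oxygen, ran from 82.3 to 31.7 CPM, and Sema3a, a semaphorin that restrains vessel growth, from 5.58 to 1.68 CPM.

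Summed over the 7 endothelial genes, the strains were closer still. The sum was highest in (CC042/GeniUncJ x CC060/UncJ)F1 at 218 ± 19.9 CPM (SD, n = 22) and lowest in (CC075/UncJ x CC042/GeniUncJ)F1 at 190 ± 17.5 CPM (n = 24), a ratio of 1.14. The distance of 27.5 CPM compares with a median SD within a strain of 20.9 CPM.

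Diet was compared next in the untreated mice, asking whether the high-fat diet moved the vascular genes. Levels of 7 of the 10 genes rose with 44% fat and none fell, against 9.55% of all tested genes higher, 8.82% lower and 18.4% called in either direction (edgeR's quasi-likelihood test with strain, sex and identifier range, adjusted over 16384 genes, n = 469). The changes were small, from 3.40% for Vegfb to 10.5% for Angpt1, and the libraries of the 2 diets overlapped for each gene. The median log2 change of the 10 genes was 0.06, and that of all tested genes was -0.002. The 10 genes were chosen with earlier results of these data known. Such counts beside the share of all genes, here and in the other comparisons, are thus a description and no test of the set.

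Angpt1 rose most with diet. Its untreated libraries ran from 8.54 through a median of 20.2 to 51.7 CPM on 10% fat (n = 234) and from 5.70 through 21.9 to 54.1 CPM on 44% fat (n = 235). The fitted difference was 0.14 ± 0.02 on the log2 scale (SE, adjusted p = 1.9e-08 by edgeR), and the mean was higher on 44% fat in 20 of 20 strains, by 0.0093 to 0.31. The lowest of the 44% fat libraries came from a mouse whose profile went against its strain label. Among the other ligands, Vegfa rose by 0.06 ± 0.02 (adjusted p = 0.0153 by edgeR) and was higher in 16 of 20 strains, and Vegfb rose by 0.05 ± 0.02 (adjusted p = 0.0392), also in 16 of 20.

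Of the endothelial genes, 4 of 7 rose. Cdh5 had 25.5, 45.7 and 60.8 CPM (lowest, median, highest) on 10% fat and 24.6, 47.7 and 65.3 CPM on 44% fat, a difference of 0.08 ± 0.02 (adjusted p = 0.000141 by edgeR, higher in 14 of 20 strains). Esam differed by 0.07 ± 0.02 (adjusted p = 0.000771, 15 of 20 strains), Pecam1 by 0.06 ± 0.02 (adjusted p = 0.00199, 16 of 20) and Flt1 by 0.06 ± 0.02 (adjusted p = 0.0380, 15 of 20). Kdr at 0.07 ± 0.03 (adjusted p = 0.0553) and Emcn at 0.06 ± 0.02 (adjusted p = 0.0572) missed the threshold and Emcn was higher in 17 of 20 strains. Tek stood at -0.0027 ± 0.02 (adjusted p = 0.948), with a 95% interval from -0.04 to 0.03, under the point estimates of the 9 other genes.

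The calls near the threshold depended on the fit. Among the alternative fits Vegfb lost its call in 6, Flt1 in 5, Vegfa in 3 and Pecam1 in 2. Angpt1, Cdh5 and Esam each lost it in 1, while Kdr gained a call in 2 and Emcn in 1. Limma voom called 6 of the 10 genes. With total counts as the only scaling, 3 of the 10 genes passed, and the 7 changes stayed positive. In the lower identifier range 5 passed and in the smaller upper range 1, against 15.7% and 1.80% of all genes: Angpt1 was 0.15 in the lower and 0.17 in the upper range, and Vegfa was 0.04 and 0.22. Without the libraries that held liver transcripts, 6 of the 10 passed.

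**Figure D3:**
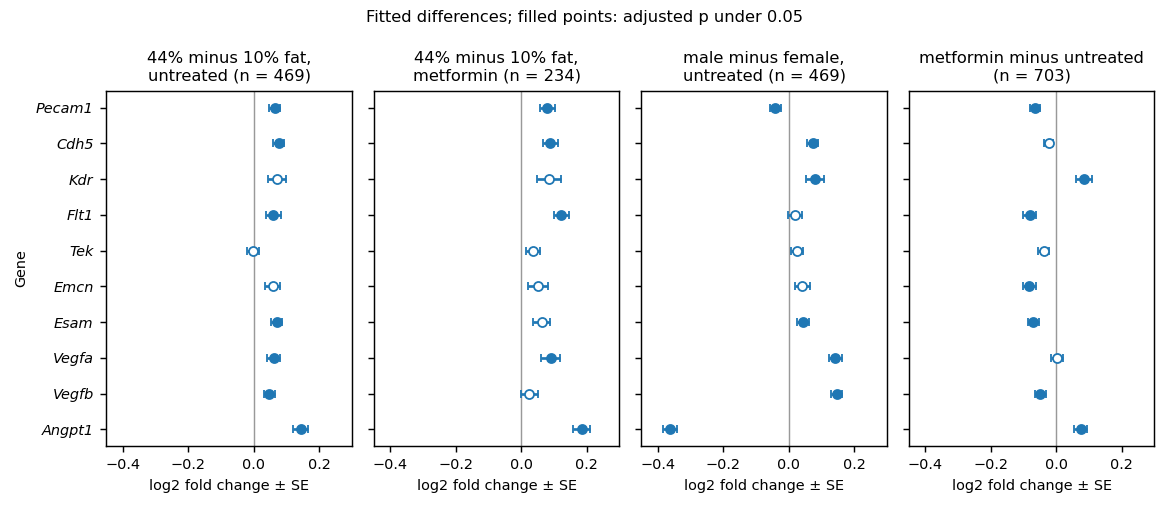
Fitted log2 fold changes (points) with their standard errors (bars) for the 10 genes in 4 comparisons, from left to right diet in untreated mice, diet in metformin mice, sex and metformin. Filled points had an adjusted p under 0.05: 7, 5, 7 and 7 of the 10 genes, with Angpt1 farthest from 0 for both diet comparisons and for sex.

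Of 28 further endothelial markers, 13 rose with 44% fat, none fell and 15 did not pass, with a median log2 change of 0.07. Car4, an endothelial carbonic anhydrase of muscle capillaries, had the lowest p among them, at 2.31 ± 0.96 CPM on 10% fat and 2.65 ± 0.97 CPM on 44% fat (0.22 ± 0.04 on the log2 scale, adjusted p = 8.9e-06 by edgeR). Of 9 genes of the VEGF family and its receptors, which include Vegfa, Vegfb, Flt1 and Kdr, 4 rose, the other one being the coreceptor Nrp2 (0.08 ± 0.02, adjusted p = 0.0030). Of 7 angiopoietin genes and partners of their receptors, which include Angpt1 and Tek, 3 rose, the others being the orphan receptor Tie1 (0.07 ± 0.02, adjusted p = 0.00037) and the phosphatase Ptprb (0.07 ± 0.02, adjusted p = 0.035), both also among the 28 markers. In the Notch pathway of vessels 2 of 9 rose. Of 10 regulators of oxygen sensing and of the PGC-1 pathway 5 rose, led by Epas1, the endothelial hypoxia-inducible factor (0.10 ± 0.02, adjusted p = 3.0e-07), and Egln1, a prolyl hydroxylase that marks such factors for degradation (0.06 ± 0.01, adjusted p = 2.0e-06). Of 8 inhibitors of vessel growth 1 rose and 1 fell.

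Markers of other cells moved with diet as well, and their part in these changes was not tested. All 10 adipocyte markers passed, 8 higher and 2 lower. Their summed level ran from 720 to 3134 CPM (median 1472) on 10% fat and from 778 to 3445 CPM (median 1564) on 44% fat. These sums, here and below, were mostly Car3, and so do not measure the list as a whole. Over all libraries Car3 had a median of 1126 CPM, against 13.6 CPM for Adipoq and 14.9 CPM for Plin1. Of 9 genes of slow and oxidative fibres, called slow-fibre here and below, 5 rose, with sums from 1543 to 7464 CPM and from 843 to 7806 CPM. The list includes Myh2, the myosin of fast oxidative fibres, which was the largest part of these sums. Its median over all libraries was 2257 CPM, against 726 CPM for the slow myosin Myh7. Pericyte markers rose in 4 of 10, fibroblast markers fell in 4 of 8, vascular smooth muscle markers fell in 3 of 8, fast-fibre genes fell in 3 of 9 and lymphatic markers fell in 1 of 7. No gene of these lists was at 0 in any library, except the lymphatic marker Mmrn1 in 1. By edgeR 0 of 10 macrophage, 0 of 6 red blood cell and 0 of 10 liver markers passed, with 1, 0 and 1 at an unadjusted p under 0.05. Limma voom called 0, 1 and 0. The liver markers lay near the floor, with medians over all libraries from 0.04 CPM for Apoc3 to 1.68 CPM for Alb. Apoc3 was at 0 in 284 libraries, and the red blood cell markers Hba-a1 and Slc4a1 in 95 and 87. A lack of calls in the liver list, here and below, thus says little.

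In the metformin mice, a separate set of libraries with its own controls, the diet difference had the same direction for all 10 genes except Tek, which stood at 0.04 ± 0.02 there. There 5 of 10 passed, all higher, against 10.5% of 16418 genes in either direction, 4.82% higher and 5.73% lower. Angpt1 rose by 0.18 ± 0.03 (adjusted p = 3.1e-09 by edgeR, n = 234), Flt1 by 0.12 ± 0.02 (adjusted p = 2.7e-05), Cdh5 by 0.09 ± 0.02 (adjusted p = 0.00170), Pecam1 by 0.08 ± 0.02 (adjusted p = 0.00531) and Vegfa by 0.09 ± 0.03 (adjusted p = 0.0226). Kdr stood at 0.09 ± 0.04, Esam at 0.06 ± 0.03, Emcn at 0.05 ± 0.03 and Vegfb at 0.02 ± 0.03, none of which passed. By identifier range 1 of the 10 passed in the lower range (Angpt1, 0.15), where 3.27% of genes were called, and 5 in the upper range, where 4.15% were. The 28 further endothelial markers rose in 8 and fell in none. Adipocyte markers rose in 3 and fell in 2 of 10 and slow-fibre genes rose in 4 of 9, and their part was not tested.

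Whether diet acted differently between sexes, strains or treatments was tested as an interaction. By edgeR 0 of the 10 genes passed for diet by sex (0.226% of all genes), diet by strain (3.27%) or metformin by diet (0.00564%), where 1, 1 and 0 had an unadjusted p under 0.05. Limma voom called 0 too. Vegfa had the lowest p in the first 2 of these. Its medians were 110.04 CPM in females on 10% fat and 109.01 CPM on 44% fat, and 113.7 and 122 CPM in males, a difference between the sexes of 0.11 ± 0.04 on the log2 scale (adjusted p = 0.274, 95% interval 0.04 to 0.19). By strain the Vegfa difference ran from -0.24 in (CC024/GeniUncJ x CC002/UncJ)F1 to 0.45 in (CC009/UncJ x CC013/GeniUncJ)F1 (adjusted p = 0.143). For Angpt1 the metformin by diet term was 0.04 ± 0.04, with a 95% interval from -0.04 to 0.11.

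**Figure D4:**
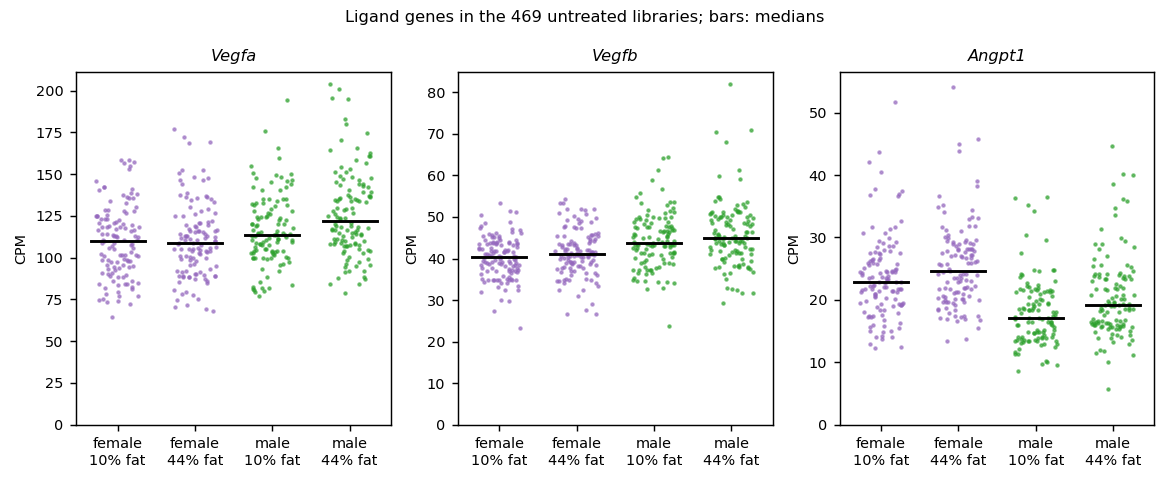
CPM of Vegfa, Vegfb and Angpt1 in the 469 untreated libraries by sex and diet. Points are libraries and bars are medians: Angpt1 was lower in males (17.1 and 19.2 CPM) than in females (22.8 and 24.5 CPM), while Vegfb and Vegfa were higher in males, with wide overlap in each panel.

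The sexes differed most in the 3 ligand genes. Angpt1 was lower in males, whose untreated libraries ran from 5.70 through a median of 18.4 to 44.7 CPM (n = 233), than in females, which ran from 12.3 through 23.7 to 54.1 CPM (n = 236). The fitted difference of -0.36 ± 0.02 on the log2 scale is 22.2% (adjusted p = 1.0e-45 by edgeR's quasi-likelihood test), and males had the lower mean in 20 of 20 strains, by 0.09 to 0.58. Vegfb ran from 23.6 through 44.7 to 81.98 CPM in males and from 23.2 through 40.9 to 54.2 CPM in females, a difference of 0.15 ± 0.02 (adjusted p = 1.0e-14) that was positive in 19 of 20 strains. Vegfa ran from 76.9 through 116.7 to 204 CPM in males and from 64.5 through 109.5 to 177 CPM in females, a difference of 0.14 ± 0.02 (adjusted p = 6.9e-12), positive in 18 of 20 strains. The lowest Angpt1 and the highest Vegfb library of the males came from the same mouse, whose profile went against its strain label. The groups overlapped for each ligand. Within the ranges Angpt1 differed by -0.35 in the lower and -0.40 in the upper, Vegfa by 0.14 and 0.21, and Vegfb by 0.14 and 0.19, of which Vegfb in the upper range missed the threshold (adjusted p = 0.0559).

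In the metformin mice Angpt1 was again lower and Vegfa higher in males by their medians, for which no test is given here. The median of Angpt1 was 22.7 CPM in females and 18.7 CPM in males on 10% fat, and 26.96 and 20.5 CPM on 44% fat. For Vegfa these medians were 100.4 and 117.6 CPM, and 111.6 and 122 CPM.

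The endothelial genes differed less between the sexes. In all, 7 of the 10 genes passed, 5 higher and 2 lower in males, but so did 65.2% of all tested genes, 29.5% higher and 35.7% lower. Cdh5 (0.07 ± 0.02), Kdr (0.08 ± 0.03) and Esam (0.04 ± 0.02) were higher in males and Pecam1 (-0.04 ± 0.02) was lower, and scaling by total counts alone left Pecam1 called, took Cdh5 to 0.01 and Kdr to 0.02 and turned Esam to -0.02. Flt1 (0.02 ± 0.02), Tek (0.03 ± 0.02) and Emcn (0.04 ± 0.02) did not pass and were negative with total counts. That scaling moved the median of all genes by -0.06. In the lower range 7 of the 10 passed against 63.9% of genes, and in the upper range 2, Angpt1 and Vegfa, against 24.2%.

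Among the other vessel genes, the lists divided by sex in both directions. The 28 endothelial markers had 4 higher and 5 lower in males, and the Notch list 2 and 1 of 9. In the VEGF family 4 of 9 were higher and 2 lower, where besides the members Pgf, a ligand of the Flt1 receptor, stood at 0.44 ± 0.06, Vegfc, the lymphatic growth factor, at -0.15 ± 0.04 and Nrp2 at -0.06 ± 0.02. Pgf and Vegfc were low, with medians of 0.62 and 1.31 CPM over all libraries. In the angiopoietin list 3 of 7 were higher and 1, Angpt1, lower, and the 3 were Angpt4 (0.62 ± 0.10), which was at 0 in 39 libraries, Svep1 (0.11 ± 0.03) and Tie1 (0.10 ± 0.02). Of the 10 oxygen and PGC-1 genes 5 were higher and 4 lower. Egln1 was the clearest, at 185 ± 19.1 CPM in females and 212 ± 22.1 CPM in males (0.20 ± 0.01, adjusted p = 1.1e-51), and Esrra, an estrogen-related receptor that works with the PGC-1 coactivators on oxidative genes, had 33.2 ± 5.40 and 38.7 ± 7.12 CPM (0.22 ± 0.02, adjusted p = 4.4e-22). Of the 8 inhibitors 4 were higher and 3 lower, with Col4a3, a basement membrane collagen whose fragment restrains vessel growth, at 2.07 ± 0.58 and 2.70 ± 0.76 CPM (0.39 ± 0.03, adjusted p = 3.2e-24).

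The sexes also differed in the markers of other cells, whose part was not tested. All 9 slow-fibre genes, Myh2 among them, were lower in males. Their sums ran from 843 to 5893 CPM (median 3520) in males against 2645 to 7806 CPM (median 4651) in females. Of the fast-fibre genes 7 of 9 were higher and 2 lower, and of the adipocyte markers 8 of 10 were lower and 2 higher. The adipocyte sums, mostly Car3, ran from 720 to 2539 CPM in males and 1192 to 3445 CPM in females. Lymphatic markers were lower in 6 of 7. Pericyte markers were higher in 5 and lower in 1 of 10, vascular smooth muscle markers higher in 2 and lower in 1 of 8, fibroblast markers higher in 2 and lower in 3 of 8, macrophage markers lower in 1 of 10 and liver markers higher in 1 of 10. Des was 1 of the 2 higher smooth muscle markers (0.19 ± 0.01). Its median over all libraries was 2098 CPM, against 35.8 CPM for Acta2, and its part from vessel walls was not tested. Acta2 did not pass. By edgeR 0 of 6 red blood cell markers passed, with 0 at an unadjusted p under 0.05. Limma voom called 1.

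Metformin mice, all of the 12-month cohort, had lower levels of 4 of the 7 endothelial genes than untreated mice of either cohort. Over all 703 libraries 7 of the 10 genes passed, 5 lower and 2 higher, against 16.2% of 17740 genes tested, 9.21% lower and 7.01% higher. Flt1 was lower by 0.08 ± 0.02 on the log2 scale: it fell by 5.45% (adjusted p = 0.000680 by edgeR), from 16.2, 45.8 and 73.7 CPM (lowest, median, highest) in 469 untreated to 27.6, 42.3 and 63.9 CPM in 234 metformin libraries, and was lower in 17 of 20 strains. Emcn (-0.08 ± 0.02, adjusted p = 0.00184), Esam (-0.07 ± 0.02, adjusted p = 0.000589) and Pecam1 (-0.07 ± 0.02, adjusted p = 0.000548) were lower too, Pecam1 in 18 of 20 strains. Vegfb was lower by 0.05 on the same scale (-0.05 ± 0.02, adjusted p = 0.0299). The lowest Flt1 library of the untreated mice, which also gave the lowest Cdh5 on 44% fat, held liver transcripts above 10 CPM.

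Kdr and Angpt1 went the other way, at 0.09 ± 0.03 (adjusted p = 0.00964) and 0.07 ± 0.02 (adjusted p = 0.00258). Angpt1 had a higher mean in 17 of 20 strains and Kdr in 12 of 20, where its difference ran from -0.17 to 0.48. Cdh5 (-0.02 ± 0.02), Tek (-0.04 ± 0.02) and Vegfa (0.0024 ± 0.02) did not pass, and the interval for Vegfa ran from -0.03 to 0.04.

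The calls came from the lower identifier range, which held 544 of the 703 libraries and where 7 of the 10 genes passed against 18.9% of genes. In the upper range alone edgeR called 0 of the 10 and 0.00566% of all genes, with 0 of the 10 at an unadjusted p under 0.05. There Pecam1 stood at -0.04, Flt1 at -0.03, Emcn at -0.07, Esam at -0.04 and Angpt1 at 0.05, the same signs as in the whole, whereas Kdr stood at -0.01. Kdr and Vegfb also lost their call without the libraries that held liver transcripts, and with no term for the range Kdr lost its call while Cdh5 (-0.06) and Tek (-0.05) gained one. By edgeR 0 of the 10 passed for metformin by sex (1.87% of all genes) or by strain (8.89%), where 1 and 1 had an unadjusted p under 0.05. Limma voom called 0 too.

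Of the 28 further endothelial markers 14 were lower and 1 higher with metformin. Gpihbp1, the capillary protein that anchors lipoprotein lipase, had 7.61 ± 1.87 CPM in untreated and 6.72 ± 1.58 CPM in metformin libraries (-0.14 ± 0.03, adjusted p = 3.4e-06), and Rgcc, a cell-cycle regulator enriched in capillary endothelium, was the one that rose (15.6 ± 6.83 and 17.8 ± 8.70 CPM, 0.19 ± 0.04, adjusted p = 3.9e-05). Serpinf1, which encodes the vessel inhibitor PEDF, had 32.6 ± 7.90 and 28.4 ± 5.14 CPM (-0.15 ± 0.03, adjusted p = 1.1e-06) and was 1 of 3 lower among the 8 inhibitors. In the VEGF family the 1 higher and 2 lower of 9 were all members, and in the angiopoietin list Angpt1 was higher and Tie1 (-0.05 ± 0.02) and Ptprb (-0.06 ± 0.02) lower of 7. There was 1 lower of 9 in the Notch list, and 4 lower of 10 among the oxygen and PGC-1 genes. Adipocyte markers were lower in 5 of 10. Their sums, mostly Car3, ran from 804 to 3544 CPM (median 1411) in metformin and 720 to 3445 CPM (median 1548) in untreated libraries. Fibroblast markers were lower in 4 of 8, and the part of both lists was not tested. Vascular smooth muscle markers were lower in 3 and higher in 1 of 8, fast-fibre genes higher in 2 and lower in 1 of 9, and pericyte and lymphatic markers each higher in 1 and lower in 1, of 10 and 7. The higher pericyte marker was Abcc9 (0.05 ± 0.01). Its median over all libraries was 351 CPM, against 22.2 CPM for Pdgfrb, and its part from pericytes was not tested. By edgeR 0 of 10 macrophage, 0 of 9 slow-fibre, 0 of 6 red blood cell and 0 of 10 liver markers passed, with 2, 0, 0 and 0 at an unadjusted p under 0.05. Limma voom called 0 in each.

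With strain, sex, diet and range but not age taken out, the endothelial genes still tended to vary together from mouse to mouse. Vegfb and Angpt1 did not follow them. Across the 21 pairs of endothelial genes Pearson's r of the residual log2 CPM over 469 untreated libraries ran from 0.02 to 0.62 with a median of 0.35, given as a description of libraries that share their scaling. Kdr with Cdh5 was highest at 0.62, followed by Tek with Pecam1 at 0.60, and Kdr with Esam at 0.02 and Flt1 with Emcn at 0.07 were lowest. Vegfa with the 7 ran from 0.07 to 0.39, the highest with Flt1, while Vegfb ran from -0.28 to 0.07 and Angpt1 from -0.26 to 0.07.

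**Figure D5:**
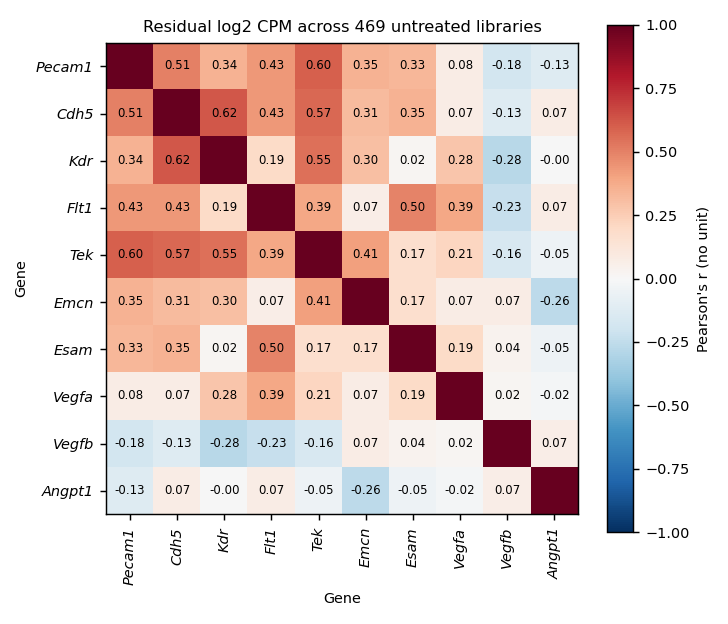
Pearson's r between the 10 genes over 469 untreated libraries, on log2 CPM with strain, sex, diet and identifier range taken out. The 7 endothelial genes form a block of positive values (0.02 to 0.62), and Vegfb and Angpt1 stay between -0.28 and 0.07 with all of them.

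For each endothelial member the 3 genes with the highest r over the same residuals were taken. Flt1 went with Ptprb, a vascular phosphatase, at r = 0.76, with Epas1 at 0.74 and with Sptan1 at 0.73. Cdh5 went with Notch3, the Notch receptor of mural cells, at 0.68, Nrp1, a coreceptor of VEGF-A, at 0.66 and Pdzd2 at 0.65, and Kdr with Fat4 at 0.66, Elk3, an ETS factor of endothelium, at 0.65 and Nrp1 at 0.64. Tek went with Tjp1, a tight-junction scaffold, at 0.63, Adgrl4 at 0.62 and Cyyr1 at 0.62, and Pecam1 with Sptbn1 at 0.64, Ehd2 at 0.63 and Adgrl4, an endothelial adhesion receptor, at 0.63. The values were lower for Esam, with Aqp1, the water channel of capillaries, at 0.53, Adgrg1 at 0.53 and Tns2 at 0.52, and for Emcn, with Cd200, Fam198b and Cd38 at 0.43 each. The 95th percentile of r over all tested genes was 0.37 for Flt1, 0.33 for Kdr and Pecam1 and 0.32 for Cdh5. It was 0.29 for Tek and 0.17 for Esam and Emcn.

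The ligands had other genes at the top. Vegfb went with the mitochondrial genes Ndufa10 and Ndufs8, subunits of respiratory complex I, at 0.77 and 0.75, and Mdh2, the malate dehydrogenase of the citric acid cycle, at 0.77. Vegfa went with Hnrnph1, an RNA-binding protein, at 0.51, Abra, an actin-binding activator in striated muscle, at 0.50 and Slc38a3, a glutamine transporter, at 0.49. Angpt1 went with Thrb, a thyroid hormone receptor, at 0.57, Pkia, an inhibitor of protein kinase A, at 0.52 and Rrm2b, a ribonucleotide reductase subunit, at 0.52. The 95th percentile of r over all tested genes was 0.45 for Vegfb, 0.23 for Vegfa and 0.26 for Angpt1.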

How the data were processed

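Total RNA was extracted from gastrocnemius muscle and its polyadenylated mRNA was sequenced by the authors, one library per mouse. Both reads of a pair were aligned as single reads to a transcriptome of the 8 founder strains, and the authors deposited estimated counts per gene (EMASE and GBRS) together with a variance-stabilised table, whose other values were used only in an alternative. The submitters' processing notes name GRCm38 and DESeq2, with no version. Multiple alignment can move estimated counts between similar genes. Gene positions came from the deposited annotation, and exon lengths from GENCODE M21.

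Deposited estimated counts, already whole numbers, were filtered by expression over the 8 groups of sex, diet and treatment and scaled by TMM. They were tested with edgeR 4.0.16 in R 4.3.3 (quasi-likelihood, Benjamini-Hochberg adjusted p under 0.05 over all genes), with strain, sex, diet and identifier range as terms, plus treatment where all 703 libraries entered. Levels are CPM of total counts scaled by TMM. Residuals and variance shares used log2 CPM with a prior count of 2, and intervals are 1.96 SE. DESeq2 1.42.0 and limma 3.58.1 were alternatives. The tests were checked on simulated counts. Replicates were single mice numbered in accession order. The 3 genes most like each member were taken by residual r (tested genes, log2 CPM averaging 1 or more), and the other genes named were, by rule, the 3 listed vessel genes with the lowest p in each comparison. The members and lists were chosen with earlier results of these data known. Robust quasi-likelihood fits were added after seeing the data. Nrp2, Pgf, Vegfc, Tie1, Ptprb, Svep1, Angpt4 and Mmrn1 were outside that rule and were named after their values were seen. The same holds for Des, Acta2, Abcc9, Pdgfrb, Alb, Apoc3, Hba-a1 and Slc4a1.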

Additional observations from a re-analysis of the deposited data

How the results depend on the processing

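The tests of the 10 genes were repeated with DESeq2, limma voom, other scalings and filters, the deposited variance-stabilised table, each identifier range alone, no range term, and without doubtful libraries. With total counts alone the genes called were 3 for diet and 4 for sex. In the upper range alone they were 1 for diet, 2 for sex and 0 for metformin, and in the lower range 1 for diet in metformin mice. The robust fits, added after seeing the data, called 7 genes for diet, 7 for sex, 10 for strain and 7 for metformin.

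Over all genes the upper range alone gave 299 calls for diet, 4019 for sex, 8601 for strain and 1 for metformin, against 3009, 10687, 15263 and 2877. A mean of 5 CPM or more left 6402 calls for sex and 8527 for strain, with fewer genes tested. Diet in metformin mice had 532 calls in the lower and 686 in the upper range, against 1732. Of the interactions, diet by sex went from 37 calls to 14 (lower) and 0 (upper), diet by strain from 535 (3.27% of genes) to 0.641% (voom) and 0.663% (upper), metformin by diet from 1 to 0 (voom and upper) and 13 (lower), metformin by sex from 331 to 152 (lower) and 0 (upper), and metformin by strain from 1577 to 506 (voom) and 212 (upper).

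The signs that turned were mostly of differences without a call, in log2. For diet, Tek was 0.0120 in the upper range and 0.0200 without liver transcripts. For sex, total counts gave Flt1 -0.0423, Tek -0.0348, Emcn -0.0211 and Esam -0.0201, a mean of 5 CPM gave Flt1 -0.0046, and the upper range gave Tek -0.0177. For metformin, Vegfa was -0.0221 with total counts, -0.0077 in the upper range, -0.0194 with no range term and -0.00068 without libraries against their label, and Kdr was -0.0127 in the upper range. For diet in metformin mice, Emcn was -0.0022 in the lower range. For diet by sex in the upper range, Pecam1 was 0.0762, Kdr -0.0116 and Flt1 -0.0048. For metformin by diet, the lower range gave Pecam1 -0.0344, Cdh5 -0.0193, Kdr -0.0276, Tek -0.00026 and Esam 0.0050, and the upper range Emcn 0.11 and Vegfa -0.0788. For metformin by sex in the upper range, Emcn was -0.0259, Vegfb 0.0267 and Angpt1 0.12. The cause was not tested for any of these. No paired analysis was possible because every library carries the same replicate number in the labels. The upper range held 159 of the 703 libraries.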
